A study of Mus musculus with 4 samples.

Results

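The Sp and Klf transcription factor genes Sp1, Sp2, Sp3, Sp4, Klf2, Klf4, Klf5, Klf6, Klf9 and Klf10 were described by the accessible chromatin in and around them. They are 10 of 21887 protein-coding genes, and a region of open chromatin was counted for a gene when its summit lay inside the gene's RefSeq span or within 100 kb of it. The genes were chosen by peak presence in these libraries and by the overlap of the Sp1 start with the authors' list of regions stronger in wild-type cells. Values that compare the genotypes are therefore given as descriptions, without a test.

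The assay was ATAC-seq, which reads out open DNA as the places a transposase can cut, and the cells were 10T1/2, a line of mouse embryonic fibroblasts. The knockout cells lacked Ranbp2, a nucleoporin of the cytoplasmic face of the nuclear pore, through CRISPR-Cas9 editing, and they are a single clone derived from 1 sorted cell. They were set against cells wild type for Ranbp2. Peaks do not measure the Ranbp2 transcript or protein, so the knockout label was not checked here. Each genotype had 2 libraries, and the labels do not say whether they came from separate cultures. The files hold peaks and no read counts, so the sequencing depth is unknown. The knockout lists had 13877 and 24292 peaks, and the wild-type lists had 33721 and 18511. With 2 libraries against 2 there are 6 ways to split the libraries, and an exact two-sided permutation test cannot give a p below 2 in 6. In bulk libraries, fewer cells with an open site and less opening per cell cannot be told apart.

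Peaks at the ends of marker genes were used to look at the cell type label. Fn1, Vim and Col1a2 had such a peak in all 4 libraries, which makes 3 of 12 fibroblast or mesenchymal markers (25.0%), close to the 26.5% of all protein-coding genes. None of 6 epithelial, 5 endothelial and 4 pluripotent markers had one in any library. Of the 5 immune markers, Cd68 had one in knockout replicate 2 and Spi1 in wild-type replicate 1. Of the 5 neural markers, Map2 had one in knockout replicate 2 and wild-type replicate 1, and Tubb3 in wild-type replicate 1. The mesenchymal markers Twist1 and Pdgfrb, 2 of 12, had one in both wild-type libraries only, against 1.7% of all protein-coding genes. The part of this in the values of the Sp and Klf genes was not tested.

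Sp and Klf proteins bind GC-rich DNA through zinc fingers near their carboxyl end. Sp proteins favour the GC box, GGGCGG, found in many promoters of broadly expressed genes, and Klf proteins bind GC boxes and the related CACCC elements. Sp1 and Sp3 are found in nearly all cells and compete for the same sites, while Klf genes often respond to growth factors, hormones, TGF-beta or shear stress. In mesenchymal cells several Klf factors act in proliferation and in adipogenic and smooth muscle differentiation.

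The promoter letters are shown for Sp1, Sp2, Sp3 and Klf9, whose windows differ from each other in accessibility or in GC boxes. Those of Sp4, Klf2, Klf4 and Klf6 are not shown. Of the 10 genes, 8 matched RefSeq promoter entries of GRCm38.p6, the assembly that mm10 corresponds to, with 11 annotated starts in all. Each sequence below holds the 250 bases before a start, 5′ to 3′ on the gene's strand, and capitals mark GGGCGG or its reverse complement CCGCCC. The Sp1 window is chr15:102406066-102406315 on the plus strand. Sp2 has 3 windows, all on the minus strand. They are chr11:96982960-96983209 for the outer start, chr11:96977689-96977938 for the inner start that was open, and chr11:96968666-96968915 for a further inner start, whose letters are not shown. Both Sp3 windows are on the minus strand, at chr2:72980447-72980696 for the outer start and chr2:72979282-72979531 for the inner start. The Klf9 window is chr19:23140976-23141225 on the plus strand.
Sp1: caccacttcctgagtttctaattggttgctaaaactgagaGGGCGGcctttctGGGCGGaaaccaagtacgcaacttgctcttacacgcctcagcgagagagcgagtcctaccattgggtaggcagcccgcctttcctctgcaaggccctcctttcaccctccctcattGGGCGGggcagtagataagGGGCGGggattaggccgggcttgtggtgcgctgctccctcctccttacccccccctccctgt
Sp2, open inner start: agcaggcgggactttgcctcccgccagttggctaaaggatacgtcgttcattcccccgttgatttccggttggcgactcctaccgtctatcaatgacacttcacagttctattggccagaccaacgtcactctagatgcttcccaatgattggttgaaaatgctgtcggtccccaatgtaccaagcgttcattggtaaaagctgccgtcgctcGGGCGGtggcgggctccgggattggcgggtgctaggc
Sp2, outer start: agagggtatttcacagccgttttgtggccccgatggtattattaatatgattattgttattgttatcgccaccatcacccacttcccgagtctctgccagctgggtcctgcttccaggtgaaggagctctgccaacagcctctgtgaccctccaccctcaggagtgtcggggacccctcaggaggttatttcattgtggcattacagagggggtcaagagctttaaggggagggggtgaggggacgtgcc
Sp3, outer start: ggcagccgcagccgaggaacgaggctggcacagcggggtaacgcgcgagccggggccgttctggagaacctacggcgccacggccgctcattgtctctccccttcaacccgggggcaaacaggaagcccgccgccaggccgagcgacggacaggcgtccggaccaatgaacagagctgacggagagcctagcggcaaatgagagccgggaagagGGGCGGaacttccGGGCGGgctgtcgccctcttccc
Sp3, inner start: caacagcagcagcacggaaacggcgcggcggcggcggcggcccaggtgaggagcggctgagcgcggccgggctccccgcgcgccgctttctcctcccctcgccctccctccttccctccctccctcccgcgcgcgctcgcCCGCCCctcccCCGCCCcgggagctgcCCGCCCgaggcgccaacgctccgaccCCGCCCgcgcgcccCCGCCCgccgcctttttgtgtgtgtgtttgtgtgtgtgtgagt
Klf9: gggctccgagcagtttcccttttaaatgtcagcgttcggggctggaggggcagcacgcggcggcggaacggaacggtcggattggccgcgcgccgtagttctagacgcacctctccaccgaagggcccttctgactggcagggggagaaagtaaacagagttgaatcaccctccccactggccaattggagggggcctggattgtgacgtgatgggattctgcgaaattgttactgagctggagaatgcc

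Of the 11 windows, 8 overlapped a peak in all 4 libraries, against 5437 of 32851 promoters in the table. A GC box was present in 8 of the 11 windows (72.7%), against 32.7% of all promoters and 68.2% of the promoters with a peak in all 4 libraries. Both strands were searched, and matches that overlap were counted separately. The windows of the Sp and Klf genes had a mean GC content of 65.3%, against 61.7% for the promoters with a peak in all 4 libraries. The Sp1 window held 4 GC boxes, all under a peak in each library. The same held for 2 of 2 boxes at Klf2, 1 of 4 at Klf4, 0 of 4 at Sp4 and 0 of 1 at Klf6. The shorter CACCC element, or its reverse complement GGGTG, was in 54.5% of the 11 windows and in 52.0% of all promoters. The longer form CCACACCC, or its reverse complement, was in 0 of the 11 windows and in 3.2% of all promoters.

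Accessible starts and GC boxes did not go together at every start. At Sp2 the open inner start window held 1 GC box and a peak in all 4 libraries. The outer start window and the further inner start window of Sp2 held no GC box and no peak in any library. At Sp3 the outer start window had 2 GC boxes and a peak in all 4 libraries, whereas the inner start window had 5 GC boxes and a peak in wild-type replicate 1 only. None of these 5 boxes lay under a peak in any library. The Klf9 window held no GC box and 1 CACCC element, and it overlapped a peak in all 4 libraries. These matches describe letters and do not show that a factor bound there.

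Nearly all of the genes had open chromatin at their starts in both genotypes. A peak within 1 kb of an end of the gene span, called a gene end here, was present in all 4 libraries for 9 of the 10 genes, against 26.5% of all protein-coding genes. Sp2 was the exception, and it had its peak at an inner start. With annotated starts counted as well, all 10 genes had a peak in all 4 libraries, against 28.7% of all protein-coding genes. Since peak presence was among the values that chose the genes, nothing is read from either comparison. A pair of measures is given for each region. The fold enrichment is the authors' caller value at the summit over the local background of that library. The shared rank is the percentile of a region's −log10 q among the 10977 regions present in all 4 libraries, where 100 is the strongest, so that each library ranks the same regions.

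Folds ran lower in knockout libraries across the genome. Over all regions present in all 4 libraries the median fold was 7.97 and 10.1 in knockout, against 13.6 and 11.2 in wild type. At 64.1% of them, and at 71.0% of such gene-end regions, both knockout folds lay below both wild-type folds. At 2.28% and 0.485% both knockout folds lay above both wild-type folds. Of the 11 start regions of the Sp and Klf genes present in all 4 libraries, 8 had both knockout folds below both wild-type folds and 0 had them above. That share is near the background, so a lower fold in knockout is not particular to these genes.

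**Figure D1:**
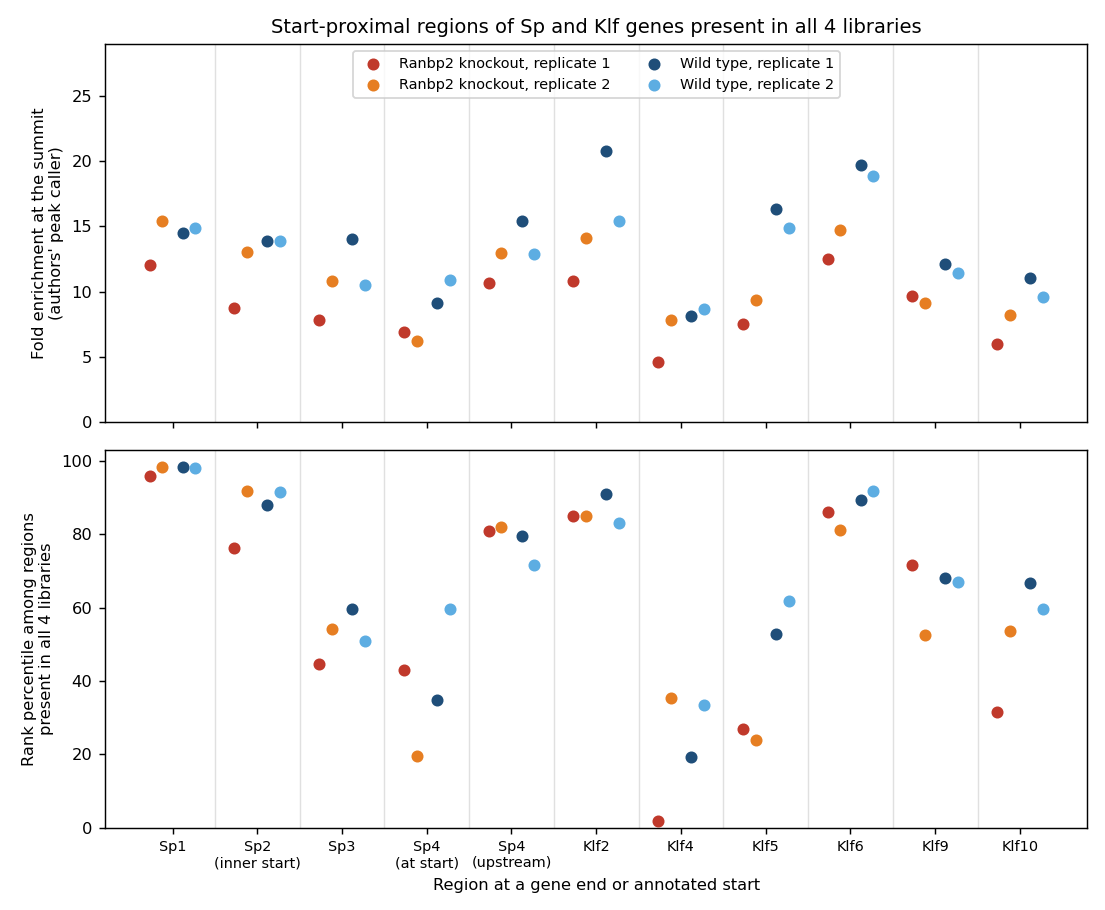
Fold enrichment at the summit (top, authors' caller) and rank percentile among the 10977 regions present in all 4 libraries (bottom) for the 11 start regions of the Sp and Klf genes. Each point is 1 library. Sp1 sits above the 95th percentile in every library (95.96 and higher), and both knockout points of Klf5 lie below both wild-type points in both panels.

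Sp1, the founding GC-box activator, had the highest-ranked start region of the group. The region spanned chr15:102405295-102406317, ending at the annotated start. It had folds of 12.1 and 15.4 in knockout replicates 1 and 2, against 14.5 and 14.9 in wild-type replicates 1 and 2. Its peak ranked 456 of 13877 and 194 of 24292 in the knockout lists, against 196 of 33721 and 213 of 18511 in the wild-type lists. The shared rank was 96.0 and 98.3 in knockout, against 98.2 and 98.1 in wild type. Knockout replicate 1 was the low library on both measures, and the groups overlapped.

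The same Sp1 region is named in the authors' deposited wild-type-enriched list, at chr15:102405792-102406191. That interval holds 2 of the 4 GC boxes of the promoter, those starting 210 and 197 bases before the start. The ones at 81 and 62 bases lie outside it. The mean shared rank differed by -1.06 points (97.1 ± 1.62 in knockout, 98.2 ± 0.0902 in wild type, SD, n = 2 each), less than the spread between the knockout libraries. Without knockout replicate 1 the difference was 0.0631 points, within chromosome 15 it was 0.367 points, and ranked by fold it was 20.8 points. The peak lists therefore gave no lower Sp1 rank in knockout that held under every ranking, and the deposited list carries no fold change or p-value to set beside them.

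The gene-end regions whose shared ranks came closest to those of Sp1 belonged to Rbm25, an RNA-binding protein, Mtmr4, a lipid phosphatase, and E2f3, a cell cycle transcription factor. They were the nearest of 5156 gene-end regions by Euclidean distance over the 4 libraries, at 0.677, 0.711 and 0.769 percentile points. None of them overlapped the deposited wild-type-enriched list.

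Sp3, which activates or represses through the same sites as Sp1, had a start region of middle strength at chr2:72980365-72980649. Its folds were 7.78 and 10.8 in knockout, against 14.0 and 10.5 in wild type. On the shared rank it had 44.5 and 54.0 in knockout, against 59.6 and 51.0 in wild type, so the groups overlapped. Further gene-end regions of Sp3 were weak and irregular. One at chr2:72979814-72979978 had a fold of 4.45 in knockout replicate 2 and no peak in knockout replicate 1, against folds of 5.88 and 5.60 in wild type. The others were in wild-type replicate 1 alone and in wild-type replicate 2 alone.

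Sp4, an Sp activator best known from neurons, had 2 gene-end regions, both in all 4 libraries, and no other region within 100 kb. The region over the start, chr12:118301163-118301646, had folds of 6.87 and 6.22 in knockout, against 9.14 and 10.9 in wild type. Its shared rank was 42.9 and 19.6 in knockout, against 34.9 and 59.6 in wild type. The stronger region, chr12:118301958-118302389, had its summit 636 bp upstream and folds of 10.6 and 13.0 in knockout, against 15.4 and 12.9 in wild type. Here the shared rank was 80.8 and 82.0 in knockout, above 79.4 and 71.6 in wild type. At Sp4 the start itself and the upstream region thus had mean differences of opposite sign, -15.9 and 5.93 points. The knockout and wild-type ranks overlapped at the start and not at the upstream region.

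Sp2, which in mouse cells binds largely at CCAAT boxes with the factor NF-Y, was open at 1 of its 2 inner starts, chr11:96977650-96978150. Folds were 8.71 and 13.0 in knockout, against 13.9 in both wild-type libraries. The shared rank was 76.3 and 91.8 in knockout, against 87.9 and 91.4 in wild type. On the rank, knockout replicate 1 was low and knockout replicate 2 was above both wild-type libraries. A region 1480 bp inside the gene from this start, chr11:96976065-96976272, ranked higher in both knockout libraries (28.6 and 37.6) than in both wild-type libraries (7.65 and 11.0).

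Klf2, a shear-stress-induced factor that limits inflammation in endothelium, had a strong start region at chr8:72318792-72319202. Its folds were 10.8 and 14.1 in knockout, against 20.8 and 15.5 in wild type. On the shared rank it had 84.9 and 85.1 in knockout, against 91.0 and 82.9 in wild type. The knockout values lay between the wild-type values, so the fold gap was not seen in the rank.

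Klf4, a reprogramming factor and regulator of smooth muscle genes, had gene-end regions that differed between the knockout libraries. The region over its start, chr4:55532439-55532727, had folds of 4.61 and 7.83 in knockout, against 8.12 and 8.67 in wild type. The shared rank was 1.68 and 35.3 in knockout, against 19.4 and 33.6 in wild type, with a knockout SD of 23.8 (n = 2). A neighbouring region with its summit 513 bp upstream of the start had no peak in knockout replicate 1 and folds of 9.41 in knockout replicate 2, against 7.90 and 7.20 in wild type. A region inside the gene had the same pattern, absent from knockout replicate 1 alone, with a fold of 6.65 in knockout replicate 2, against 5.55 and 6.92 in wild type. Knockout replicate 1 has the shortest peak list. At the start both knockout folds lay below both wild-type folds, while the ranks overlapped. Without knockout replicate 1 the rank difference at the start was 11.9 points, against -7.98 with both knockout libraries.

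Klf5, an activator of smooth muscle proliferation and early adipogenesis, had the largest rank difference among the 11 start regions. Its only region within 100 kb was chr14:99298440-99298718, at the lower-coordinate end of the gene. Folds were 7.50 and 9.35 in knockout, against 16.3 and 14.9 in wild type. The shared rank was 26.8 and 23.9 in knockout, against 52.7 and 61.9 in wild type, and the groups did not overlap. The mean difference was -32.0 points (25.3 ± 2.08 in knockout, 57.3 ± 6.5 in wild type, SD, n = 2 each), while the shared regions of chromosome 14 had a median difference of 0.311 points. Of all regions present in all 4 libraries, 2.49% had a difference this low or lower. The difference ran from -36.5 to -27.4 points under the 8 alternative rankings and left-out libraries. The region is not in the deposited wild-type-enriched list.

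Klf6, an immediate early factor with a role in fibrosis, had a strong start region at chr13:5861126-5861597. Folds were 12.5 and 14.7 in knockout, against 19.7 and 18.8 in wild type. Its shared rank was 85.9 and 81.1 in knockout, against 89.4 and 91.7 in wild type, with no overlap between groups. The mean difference of -7.04 points was close to the median of -6.16 points over the 393 shared regions of chromosome 13. Ranked within the chromosome, the Klf6 difference was -2.04 points. A pair of weak regions at the other end of the gene was found in wild-type replicate 1 only.

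Klf9, a glucocorticoid- and thyroid-hormone-induced repressor, was open at its start at chr19:23140671-23141255. Folds were 9.65 and 9.09 in knockout, against 12.1 and 11.4 in wild type. Its shared rank was 71.6 and 52.6 in knockout, against 68.2 and 66.9 in wild type, and the groups overlapped. The difference of -5.44 points became 1.03 within chromosome 19, 9.87 when ranked by fold and 4.0 without knockout replicate 2.

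Klf10, an early response gene of TGF-beta that encodes a repressor, ranked lower in knockout at its gene end, chr15:38300707-38301180. Its folds were 5.94 and 8.23 in knockout, against 11.1 and 9.56 in wild type. The shared rank was 31.6 and 53.5 in knockout, against 66.6 and 59.6 in wild type. The groups did not overlap, and the mean difference was -20.5 points (42.6 ± 15.5 in knockout, 63.1 ± 4.93 in wild type, SD, n = 2 each). Chromosome 15 as a whole had a median of -4.70 points over 545 shared regions, and within the chromosome the Klf10 difference was -12.6 points. Without knockout replicate 1, which also changes the set of regions ranked, it was -6.92 points. Knockout replicate 1 was the lower of the 2 knockout libraries.

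In the ranks, 3 of the 11 start regions were lower in both knockout libraries and 1 was higher, against 26.9% and 15.3% of the 5157 gene-end regions present in all 4 libraries. The 3 were those of Klf5, Klf6 and Klf10, and the 1 was the upstream region of Sp4. These shares are near the background, and nothing particular to the group is read from them.

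The 10 genes had 101 merged regions in all. Of these, 40 (39.6%) were present in all 4 libraries, against 28.0% of all merged regions, and 36 (35.6%) were in a single library, of which 27 were in wild-type replicate 1, the longest list. Peaks in these windows numbered 44 and 65 in the knockout lists (0.317% and 0.268% of peaks), against 92 and 57 in the wild-type lists (0.273% and 0.308%). The 2 shorter lists thus had the higher shares, and the genotypes overlapped.

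The genes fell into crowded and sparse neighbourhoods. Sp2 had 18 regions, Klf6 had 17, Sp1 had 16, Klf10 had 14 and Sp3 had 13, at percentiles from 88.0 to 96.2 among protein-coding genes, whose median was 6. Klf2 had 9 regions and Klf9 had 8. Klf4, Sp4 and Klf5 had 3, 2 and 1, all of them inside the gene or at a gene end. Klf6 had the most single-library regions, 11 of its 17.

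**Figure D2:**
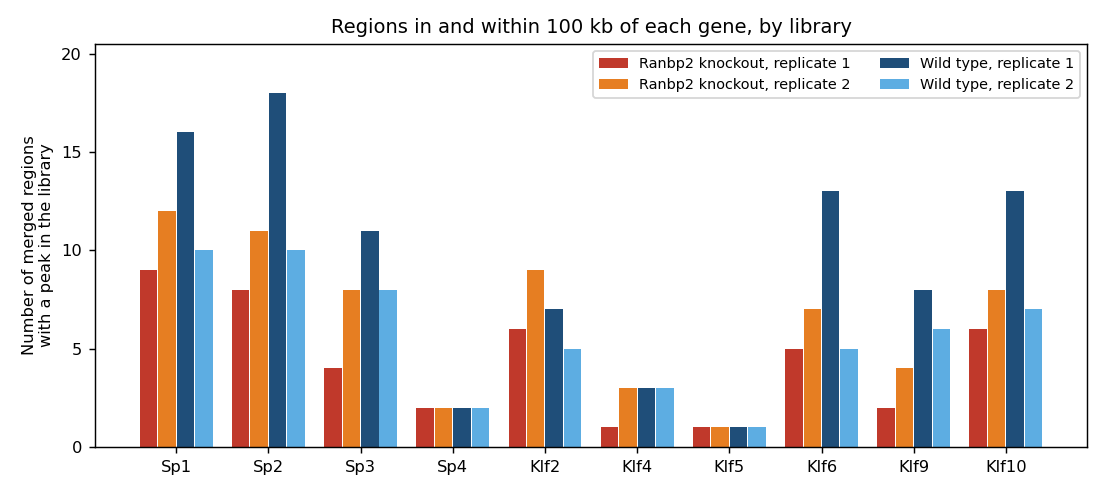
Number of merged regions with a peak in each library, in and within 100 kb of each gene. Knockout bars are left of wild-type bars. Wild-type replicate 1 has the highest count at Sp1, Sp2, Sp3, Klf6, Klf9 and Klf10, and knockout replicate 2 has the highest at Klf2 (9).

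Of the 101 regions, 0 had a peak in both knockout libraries and none in wild type, against 0.953% of all merged regions. The reverse, peaks in wild-type replicates 1 and 2 and none in knockout, was found for 6 (5.94%), against 6.52%. With every list reduced to its 13877 strongest peaks these counts were 1 and 2, against 5.23% and 6.2% of the regions then merged. The wild-type-only share with full lists is near the background.

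The 6 wild-type-only regions were all distal, and 5 of them are described here. A pair lay beside Sp3 at chr2:73004509-73004723 and chr2:73005766-73005898, 24.2 and 25.4 kb upstream of the outer start. The first had folds of 11.6 and 6.75 in wild-type replicates 1 and 2, and the second 7.97 and 5.43. Klf9 had a region 86.6 kb upstream at chr19:23054588-23054744, with folds of 5.70 and 7.28, and another 49.5 kb upstream at chr19:23091694-23091834, with folds of 6.68 and 5.66. The region of Klf6 lay 35.2 kb upstream at chr13:5826171-5826381, with folds of 6.61 and 5.20. In wild-type replicate 2 these peaks stood no higher than percentile 24.0 of the list, while in wild-type replicate 1 both Sp3 regions stood above the middle of the list, at percentiles 73.5 and 54.1.

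**Figure D3:**
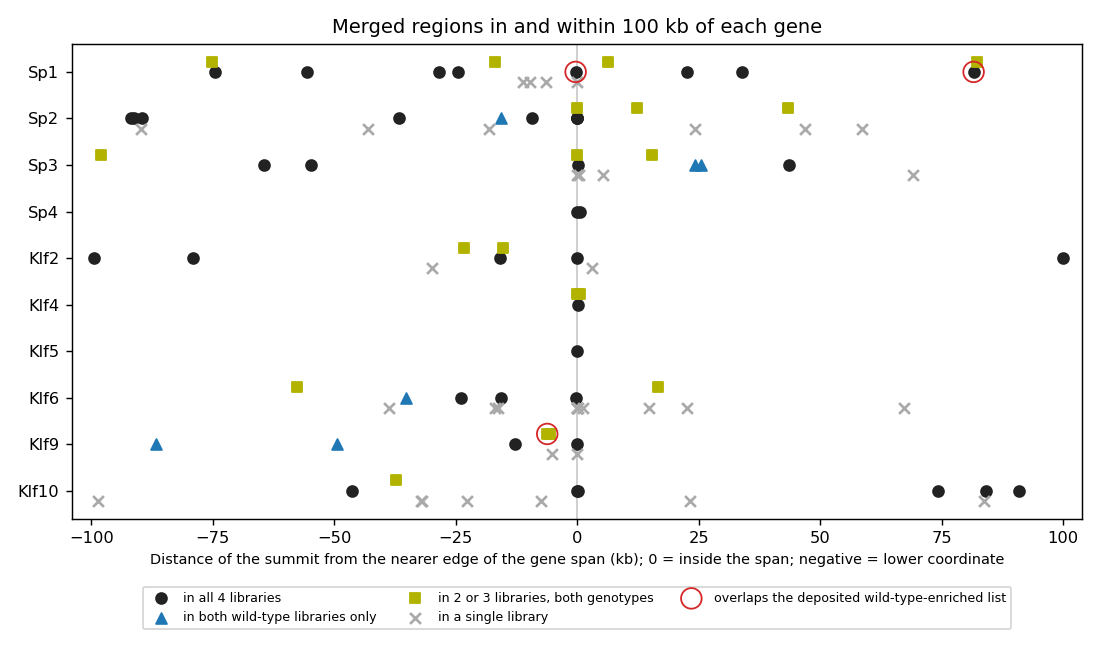
Position of the 101 merged regions relative to the nearer edge of each gene span, in kb, where 0 is inside the span. Symbols give the libraries with a peak, small vertical offsets keep symbols apart, and red circles mark the 3 regions in the authors' deposited wild-type-enriched list. The 6 wild-type-only regions lie at Sp2, Sp3, Klf6 and Klf9.

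Besides the Sp1 start, the authors' deposited wild-type-enriched list held 2 regions in these windows, so that 3 of 101 overlapped it, against 0.493% of all merged regions. The deposited knockout-enriched list held 0 of them, against 0.491%. The Sp1 region was known when the genes were chosen. Another lay 81.6 kb from Sp1 inside Tarbp2, a Dicer partner, at chr15:102517859-102518501. Its folds were 12.6 and 15.1 in knockout, against 17.5 and 20.2 in wild type.

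The remaining deposited region lay 6.17 kb upstream of Klf9, at chr19:23134926-23135195. It had no peak in knockout replicate 1 and a fold of 5.00 in knockout replicate 2, against 9.67 and 8.89 in wild type. Its list percentile was 22.9 in knockout replicate 2, against 77.5 and 65.3 in wild type. An adjacent region 5.63 kb upstream, chr19:23135441-23135788, had the same pattern, with no peak in knockout replicate 1 and a fold of 5.26 in knockout replicate 2, against 9.18 and 8.75 in wild type. The adjacent region was not in the deposited list. Neither has a shared rank, since 1 library has no peak there. On chromosome 19 as a whole, 38.0% of shared regions ranked lower in both knockout libraries, and the part of this in the Klf9 values was not tested.

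A further Klf9 region went the other way. At chr19:23128280-23128423, 12.9 kb upstream, folds were 11.7 and 13.5 in knockout, against 10.8 and 11.8 in wild type. Its shared rank was 76.0 and 65.1 in knockout, against 17.3 and 47.1 in wild type. The difference of 38.3 points was the largest in either direction among the 40 shared regions, and 2.27% of all shared regions had one this high or higher. The wild-type replicates lay far apart at this region.

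The window of Klf10 held the most regions that ranked lower in knockout, 4 of its 6 shared regions. Besides the gene end they lay inside the gene at chr15:38298934-38299497, at chr15:38244947-38245269, 46.4 kb away, and at chr15:38384746-38384993, 84.1 kb away. The one inside the gene had folds of 5.98 and 8.33 in knockout, against 10.4 and 11.8 in wild type. At 46.4 kb they were 7.19 and 8.45 in knockout, against 16.2 and 11.7 in wild type. At 84.1 kb they were 4.73 and 5.01 in knockout, against 9.86 and 7.78 in wild type. Rank differences at the 3 sites were -25.5, -29.2 and -23.4 points.

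Another shared region near Klf10, chr15:38374807-38375234, 74.3 kb away, ranked higher in knockout, at 77.2 and 83.3, against 55.2 and 50.7 in wild type. The folds of this region overlapped, at 9.96 and 12.9 in knockout, against 13.0 and 10.4 in wild type. By rank, though not by fold, the Klf10 window therefore held sites on both sides. On chromosome 15, 40.2% of all shared regions ranked lower and 15.4% higher in both knockout libraries.

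Among the strongest distal sites in all 4 libraries, several belonged to neighbouring genes. Near Sp1 they were the region inside Tarbp2, the end of Pcbp2, an RNA-binding protein, and the end of Aaas, a nucleoporin. The Aaas region, chr15:102350559-102350881, had folds of 7.67 and 11.0 in knockout, against 14.8 and 13.7 in wild type. Near Klf2 they were the ends of Eps15l1, Fam32a and Ap1m1, and the Eps15l1 region at 99.9 kb was the farthest site counted. It had folds of 15.0 and 18.5 in knockout, against 26.3 and 21.8 in wild type. The nearest site beyond the limit, 105.0 kb from Klf2, was in wild-type replicate 1 alone with a fold of 5.22.

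Some sites lay outside protein-coding genes and more than 1 kb from their ends. The region 23.9 kb upstream of Klf6, chr13:5837343-5837730, had folds of 16.6 and 16.1 in knockout, against 19.3 and 21.9 in wild type. Its shared rank was 93.1 and 77.4 in knockout, against 75.7 and 91.3 in wild type, higher than that of the Klf6 start in knockout replicate 1. Near Sp3, chr2:72881553-72881923 had folds of 8.02 and 13.7 in knockout, against 14.6 and 13.1 in wild type. Its shared rank was of middle height, 33.6 and 63.9 in knockout, against 42.3 and 57.7 in wild type, and the groups overlapped.

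Sites near Sp3 ranked higher in knockout at 2 places. The region at chr2:72871925-72872202, 64.4 kb from the gene, had a shared rank of 41.4 in both knockout libraries, against 17.8 and 24.4 in wild type. The region 43.6 kb upstream, chr2:73023880-73024115, had 33.1 and 6.32 in knockout, against 1.81 and 3.35 in wild type. Near Klf2, a site 15.9 kb upstream, chr8:72302956-72303272, had 15.3 and 46.3 in knockout, against 3.43 and 10.2 in wild type. The folds of the genotypes overlapped at each of these sites. At the Sp3 region 64.4 kb away they were 7.89 and 9.64 in knockout, against 10.7 and 8.93 in wild type.

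Counted over all 40 shared regions, 10 ranked lower and 10 ranked higher in both knockout libraries, against 25.0% and 22.7% of all shared regions. The median difference was -1.60 points, against -0.549 points over all shared regions. Of the 10 lower ones, 9 lay among the 19 shared regions on chromosomes 13, 15 and 19, where 3 were higher. Over all shared regions of these chromosomes, 38.0% to 41.0% ranked lower and 10.9% to 15.4% higher. Among the 21 shared regions elsewhere 1 was lower, that of Klf5, and 7 were higher. On those chromosomes 17.2% to 24.0% of all shared regions ranked lower and 19.2% to 28.8% higher. The median over all shared regions was -6.16 on chromosome 13, -4.70 on chromosome 15 and -4.45 on chromosome 19, against -1.05 to 1.40 on the other 6 chromosomes that hold these genes. How far the chromosome enters the values of single genes was not tested beyond the ranking within chromosomes.

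**Figure D4:**
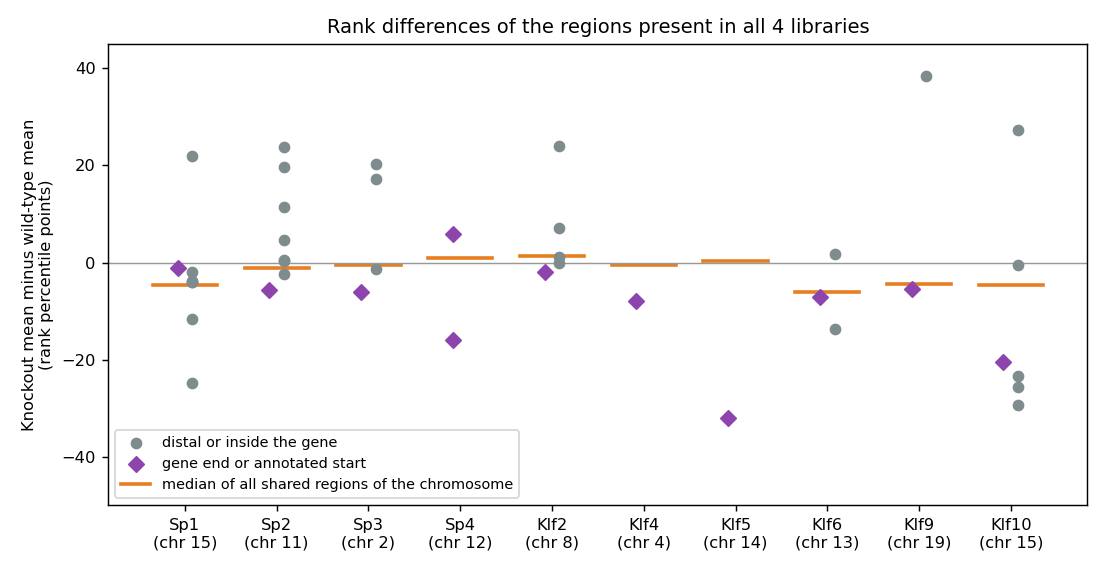
Mean knockout minus mean wild-type shared rank, in percentile points, of the 40 regions present in all 4 libraries. Diamonds are gene ends or annotated starts, grey points are other regions, and orange lines are the median of all shared regions of the chromosome. Klf5 (-32.0) lies far below its chromosome's line, and Klf10 has 4 regions below -20 and 1 at 27.3.

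Among the other 16 family genes, gene-end peaks in all 4 libraries were about as common as among all protein-coding genes. Inner starts were not counted for these 16, and a missing peak may lie below a list's threshold. Klf7, Klf11, Klf13 and Klf16 had a gene-end peak in all 4 libraries (25.0%, near the 26.5% of all protein-coding genes), and 11 had none in any library. Klf7 had folds of 14.6 and 19.5 in knockout, against 22.0 and 21.4 in wild type. Klf13 had 10.9 and 12.9 in knockout, against 15.4 and 13.7 in wild type. Klf11 had 5.37 and 8.10 in knockout, against 9.16 and 10.4 in wild type. Klf16 had 4.86 and 8.16 in knockout, against 11.3 and 13.1 in wild type, and its shared rank was 11.6 and 58.6 in knockout, against 67.1 and 84.8 in wild type. The shared ranks of the genotypes overlapped at Klf7, Klf11 and Klf13. Ranks lower in both knockout libraries, as at Klf16, were found at 26.9% of gene-end regions present in all 4 libraries. A deposited wild-type-enriched region lay within 100 kb of Klf16 and of Sp7, the osteoblast factor. Sp7 lies in the same part of chromosome 15 as Sp1 and had no gene-end peak. Its deposited region may be the one at the Sp1 start, so it is not read as a separate one. The share of all genes with a deposited region within 100 kb was not computed. Peaks at gene ends in both libraries of 1 genotype and none of the other were found for 0 of the 16 genes, against 0.0457% of all protein-coding genes for knockout and 1.7% for wild type.

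Several genes whose products work with Sp and Klf proteins were open in both genotypes. Of 15 cofactors and regulators, 8 had a gene-end peak in all 4 libraries (53.3%, against 26.5% of all protein-coding genes), among them Hdac1, a histone deacetylase, Fbxw7 and Wwp1, which mark Klf proteins for degradation, and Ogt, which glycosylates Sp1. Taf4, a TFIID subunit bound by Sp1, had one in both wild-type libraries only, with folds of 6.67 and 5.67, and was 1 of 15, against 1.7% of all protein-coding genes. Of 18 genes with known Sp or Klf sites, 6 had one in all 4 libraries (33.3%), near the 26.5% of all protein-coding genes.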

How the data were processed

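The submitters' processing notes name mm10 as the build. They list MACS2, Bowtie2, cutadapt, DESeq2, DiffBind 2.2.12 and deepTools without saying what each did. The deposited peak names show that each library was called on its own, from alignments named as filtered and short, terms the sources used do not define. If only short fragments were kept, wider nucleosome-spanning fragments do not enter the peaks. Each deposited list gives a score, a fold enrichment ratio over the local background, −log10 p and −log10 q values, and the summit's offset from the peak start in bp. A further 2 deposited lists hold differential regions as positions only, and their settings are not given in the sources used.

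Peaks overlapping by at least 1 bp were merged into regions. A library's value was that of its strongest peak in the region, and a region was placed by the summit with the highest list percentile. Ranks used −log10 q. Gene spans and promoter windows came from RefSeq tables for GRCm38.p6. Samples were grouped by the genotype label. The members and gene lists were chosen with earlier results of these data known. All 10 genes were named. Other family genes, cofactors and targets were named by a gene-end peak in all 4 libraries or in a single genotype, or by a deposited region, and 4 cofactors given as examples (Hdac1, Fbxw7, Wwp1, Ogt) were chosen after their values were seen. Distal regions were named by a gene's highest mean list percentiles, by presence in a single genotype or by a deposited list. Others were chosen after their values were seen, mostly for ranks that did not overlap. Merging, ranking and assignment were tested on simulated peaks that lay far apart and had little noise in their values. Adjacent peaks, as at several of these starts, and replicates that differ strongly were not covered. Alternatives covered list length, threshold, window, ranking and each left-out library. Leaving out a library also changed which regions were shared and ranked. Python 3.11.15, pandas 2.3.3 and numpy 2.4.6 were used. Some regions and genes are not reported here. Counting intervals are not given because no counts were available.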

Additional observations from a re-analysis of the deposited data

How the results depend on the processing

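Of 178 values recomputed under an alternative, 141 stayed within 1.5 times the count or, for rank differences, within a spread. That spread was the SD of the differences between each knockout and each wild-type library, not a spread between replicates of 1 genotype. It was wide for some genes. At Klf4 it was 21.1 points, so a change from -7.98 to 11.9 counted as within it despite the change of sign. With equal list length the regions assigned to the genes numbered 57, with 1 in knockout only and 2 in wild type only. At a −log10 q of at least 10, 6 shared regions ranked higher in knockout. With a window of 50 kb, 26 regions were in all 4 libraries and the median rank difference was -3.92 points. With the gene span and 1 kb only, 26 regions were left, 14 of them in all 4 libraries, 0 in wild type only and 1 in the deposited wild-type-enriched list. Of those 14, 4 ranked lower and 2 higher in knockout, with a median of -5.82. The median was -0.0454 within chromosomes, 0.638 by fold and -5.11 by whole-list rank. By fold 6 regions ranked lower, and by whole-list rank 2 ranked higher. With 1 library left out, knockout-only regions ran from 0 to 6, wild-type-only regions from 6 to 33 (the most without wild-type replicate 2), lower-ranked regions from 15 to 18, higher-ranked ones from 13 to 21 and the median from -3.36 to -0.195. A left-out library leaves fewer values that must not overlap, and causes of the other shifts were not tested. Added after seeing the data, annotated starts raised the count of genes open in all 4 libraries to 10, against 9. No paired analysis was possible because the results come from no test, and the labels do not say what the shared replicate numbers mark. Unknown depth limits every absence: a region missing from a list may lie below its threshold.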

Other observations

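Regions at the ends of neighbouring genes made up 15 of the 101 regions, and 11 of these (73.3%) were present in all 4 libraries. Of the 56 regions that lay outside protein-coding genes and more than 1 kb from their ends, 14 (25.0%) were. Over the genome, 50.9% of all gene-end regions and 28.0% of all merged regions were present in all 4 libraries. A higher share at gene ends is therefore not particular to these windows. Pcbp2, an RNA-binding protein 34.0 kb from Sp1, had folds of 16.0 and 21.2 in knockout, against 26.9 and 26.1 in wild type, and its shared rank of 92.6 and 95.6 in knockout lay below the 97.8 and 98.4 in wild type. Prr13, 22.7 kb from Sp1, had a shared rank of 26.9 and 63.3 in knockout, against 75.1 and 64.8 in wild type. Copz2, a vesicle coat subunit near Sp2, had 2 regions. The one 91.2 kb from Sp2 had 87.9 and 83.4 in knockout, against 80.9 and 89.6 in wild type, and the groups overlapped. The weaker one, 91.8 kb away, ranked higher in both knockout libraries, at 40.2 and 49.7, against 38.7 and 28.1 in wild type. The folds of the weaker one overlapped, at 6.35 and 7.99 in knockout, against 8.92 and 6.99 in wild type. Of the 8 shared regions in the Sp1 window, 3 ranked lower in both knockout libraries, those of Prr13, Pcbp2 and Tarbp2, and 1 ranked higher. On chromosome 15 as a whole, 40.2% of shared regions ranked lower and 15.4% higher, so these counts are near the background. The higher one, 24.5 kb upstream of Sp1, had a shared rank of 58.6 and 45.5 in knockout, against 31.9 and 28.3 in wild type. Its folds overlapped, at 8.56 and 9.57 in knockout, against 10.7 and 7.95 in wild type.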
